A study of Homo sapiens with 9 samples.

Results

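The genes described here encode the proteins of the cytosolic ribosome. They were chosen by symbol, as the genes named RPL or RPS (RPLP for the stalk) followed by a number and at most 1 of the letters A, L or X. Of the 27111 genes in the files, 80 met this rule, 49 named for the large subunit and 31 for the small subunit. Of these, 78 passed the filter on low counts that left 17108 genes for testing, and they comprised 47 large and 31 small subunit genes. The 2 that did not pass, RPL3L and RPL10L, are paralogs with 1 to 7 and 1 to 11 counts per library. The rule used no measured value.

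RNA was sequenced from PC-3 cells, an androgen-independent prostate cancer line derived from a bone metastasis, grown as pooled multicellular tumor spheroids (MTSs). All cells had been transduced with lentivirus and selected with puromycin. The control line carried the empty vector (Empty), and the others over-expressed the long (NF-YAl) or the short (NF-YAs) splice isoform of NF-YA, which the study describes as murine. Each line gave 3 libraries of stranded total RNA, lettered A, B and C for Empty and NF-YAs and A, B and D for NF-YAl. The methods describe 1 transduced line per construct, so construct and line cannot be told apart. The methods speak of 3 independent experiments, but neither they nor the labels tie a library letter to an experiment.

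Each ribosome has a large subunit, which joins amino acids and extrudes the chain through an exit tunnel, and a small subunit, which reads the mRNA. Cells make their proteins in matched amounts, and surplus copies are degraded. The mRNAs of these genes begin with a C and a run of pyrimidines, the TOP motif, through which mTOR signaling and LARP1 set their translation and stability. NF-Y is a trimeric factor that binds the CCAAT box of many promoters through its NF-YA subunit.

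The promoters of 8 members are shown first because these genes carried the largest differences or the exceptions described below. Each runs from 100 bases before the RefSeq start site to 10 bases after it, in GRCh38.p14, 5′ to 3′ on the strand of the gene. Capitals mark CCAAT on either strand (CCAAT or ATTGG) and the pyrimidines that follow the start. RPL10 (chrX:154398277-154398386, plus strand) and RPL13 (chr16:89560582-89560691, plus) had the lowest log2 fold changes in NF-YAl, and RPL10 and RPL17 (chr18:49492456-49492565, minus) in NF-YAs. RPS27 (chr1:153990662-153990771, plus), RPS18 (chr6:33271975-33272084, plus) and RPS24 (chr10:78033763-78033872, plus) were the small subunit genes called lower in NF-YAs. RPL35A (chr3:197950090-197950199, plus) and RPLP0 (chr12:120201102-120201211, minus) were the members with the highest log2 fold change in NF-YAl and in NF-YAs.
RPL10: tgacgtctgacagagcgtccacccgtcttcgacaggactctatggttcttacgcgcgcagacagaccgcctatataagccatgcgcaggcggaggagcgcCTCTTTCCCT
RPL13: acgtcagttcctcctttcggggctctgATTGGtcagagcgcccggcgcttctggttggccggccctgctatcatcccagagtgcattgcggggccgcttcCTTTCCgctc
RPL17: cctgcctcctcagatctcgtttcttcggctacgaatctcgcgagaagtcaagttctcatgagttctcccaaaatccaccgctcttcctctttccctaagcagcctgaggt
RPS27: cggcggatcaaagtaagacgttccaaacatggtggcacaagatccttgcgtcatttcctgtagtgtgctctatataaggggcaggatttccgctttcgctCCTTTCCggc
RPS18: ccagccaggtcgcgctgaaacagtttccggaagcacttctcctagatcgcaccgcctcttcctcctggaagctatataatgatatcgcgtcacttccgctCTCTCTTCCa
RPS24: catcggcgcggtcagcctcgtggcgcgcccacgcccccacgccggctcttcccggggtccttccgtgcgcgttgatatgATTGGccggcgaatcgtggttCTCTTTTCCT
RPL35A: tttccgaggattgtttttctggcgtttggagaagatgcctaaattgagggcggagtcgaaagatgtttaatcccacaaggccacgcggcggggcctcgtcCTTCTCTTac
RPLP0: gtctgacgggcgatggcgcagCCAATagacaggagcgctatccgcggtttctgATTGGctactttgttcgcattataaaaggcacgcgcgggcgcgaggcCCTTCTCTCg
All but RPL17 had the pyrimidine run at the start. RPL17 had a run of 16 pyrimidines that ended 4 bases before its annotated start. RPL10 and RPL13 have 3 RefSeq starts each, and the one with the longest pyrimidine run is shown. The ATTGG of RPL13 lay 73 bases before the start and that of RPS24 21 bases before it. RPLP0 held CCAAT and ATTGG, 79 and 47 bases before the start.

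The libraries held 18076979 to 27163976 expected counts, of which the members took 2.99 to 4.09%. Human NFYA, which can hold reads of the murine transgene only as far as these align to it, was at 89.2 to 96.7 CPM (counts per 1e6, TMM-scaled) in Empty, 287 to 383 in NF-YAl and 254 to 264 in NF-YAs. The PC-3 markers KRT8, KRT18 and VIM were at 109 CPM or more in all 9 libraries, whereas EPCAM stayed between 0.94 and 5.30 CPM. Their levels differed by line. KRT8 was at 268 to 313 CPM in Empty, 109 to 120 in NF-YAl and 157 to 181 in NF-YAs. In the same order KRT18 was at 328 to 375, 242 to 280 and 229 to 271 CPM. VIM was at 888 to 1018, 961 to 1408 and 1302 to 1438 CPM, and EPCAM at 0.94 to 1.05, 3.35 to 5.30 and 2.19 to 3.13 CPM. KLK3 was at 0 throughout, the leukocyte gene PTPRC was at most 0.49 CPM, the hepatocyte gene ALB at most 1.64 CPM and the endothelial gene PECAM1 at most 7.32 CPM. 2 libraries stood apart in their RNA makeup. Ribosomal RNA took 7.71% of the counts of Empty A against 2.66 to 5.27% elsewhere. Short structural RNAs (with ribosomal RNA) took 4.03% in NF-YAl D against 7.56 to 11.8% elsewhere.

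Most ribosomal protein genes had small negative log2 fold changes against Empty in both NF-YA lines, and 13 and 10 of 78 passed the test as lower. In NF-YAl the median log2 fold change of the 78 members was -0.30 (18.7% lower), against 0.01 over all genes tested, and 74 of 78 lay below 0. In NF-YAs it was -0.29 (18.03% lower), against -0.00262 over all genes, and 72 of 78 lay below 0. The same Empty libraries served both comparisons. Between NF-YAl and NF-YAs the median was 0.00274, with 38 of 78 members below 0. In bulk RNA, fewer cells of a type and less RNA per cell cannot be told apart.

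Few single genes passed the test in the main fit, and other settings, given at the end, changed their number. edgeR's quasi-likelihood test at a Benjamini-Hochberg adjusted p under 0.01 called 13 members lower in NF-YAl than in Empty, 16.7% of those tested, against 9.54% of all genes tested. It called 10 lower in NF-YAs, 12.8%, against 10.5% of all genes. edgeR called 0 members higher in NF-YAl and 0 in NF-YAs, where 10% and 12.1% of all genes were. DESeq2 also called 0 higher in each, and 23 and 22 lower. At an unadjusted edgeR p under 0.05, 1 and 0 were higher and 45 and 47 lower. RPL10 alone also fell beyond a log2 fold change of 1 in each line, a limit that 3.5% and 3.9% of all genes passed in that direction.

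The share of members whose libraries did not overlap was larger than the share called. All 3 NF-YAl libraries were below all 3 Empty libraries for 30 members (38.5%), against 21.4% of all genes. In NF-YAs this held for 50 members (64.1%), against 27.1% of all genes. Only RPL35A in NF-YAl and only RPLP0 in NF-YAs lay above every Empty library, where 21% and 29.2% of all genes did.

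**Figure D1:**
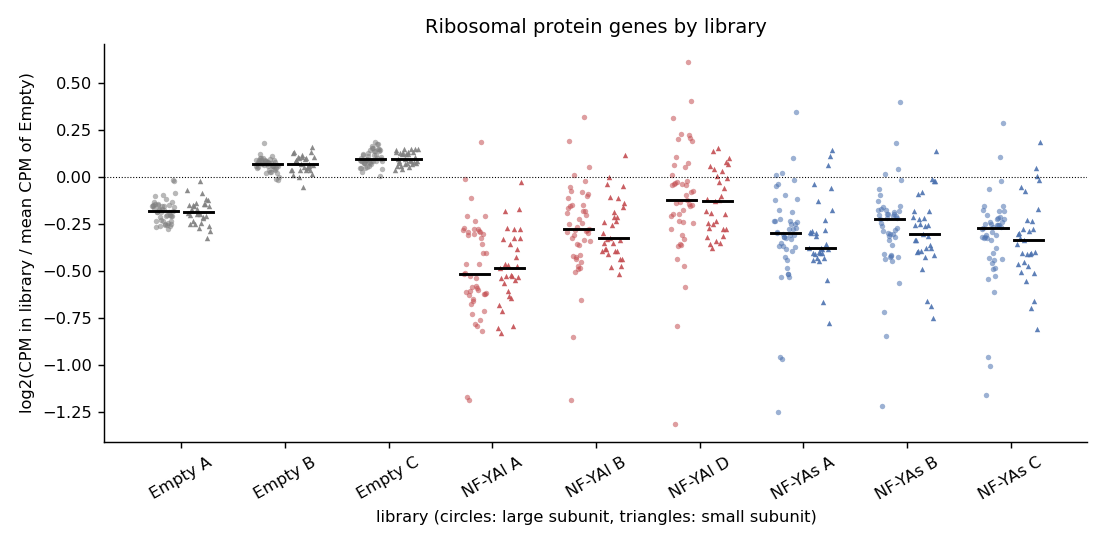
Each point is a member, as the log2 ratio of its CPM in a library to its mean in Empty; circles are the 47 large and triangles the 31 small subunit genes, and black lines are medians. Empty A lies below the other Empty libraries, the NF-YAs libraries have medians close to each other, and in NF-YAl the median is lowest in A (-0.52) and highest in D (-0.13).

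The NF-YAl libraries differed from each other more than those of NF-YAs. The median log2 ratio of the members to their Empty mean was -0.52 in NF-YAl A, -0.28 in B and -0.13 in D. In NF-YAs A, B and C it was -0.31, -0.26 and -0.30. The Empty libraries themselves stood at -0.18, 0.07 and 0.09 for A, B and C, so NF-YAl D was above Empty A on this measure. Over all genes tested the median ratio of a library lay between -0.02 and 0.01. Below every Empty library were 73 members in NF-YAl A, 53 in B and 30 in D, and above every one were 1, 2 and 11. In the NF-YAs libraries 54 to 63 members were below and 2 above. Empty A had the highest share of ribosomal RNA and NF-YAl D the lowest share of short structural RNA, and their part in these differences was not tested. With the ribosomal RNA genes left out of the fit, the test made 13 and 10 calls lower, as before, and with all short structural RNA genes left out it made 14 and 14.

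The number of calls rested on single libraries, including those outside the comparison, which share its estimate of the spread. For NF-YAl against Empty the count of 13 became 29 without NF-YAl D and 8 and 4 without NF-YAl A and B. It was 4 and 3 without Empty B and C, and 6, 5 and 4 without NF-YAs A, B and C. For NF-YAs against Empty the count of 10 became 20 without Empty A, 27 and 25 without NF-YAl A and D, 6 and 5 without Empty B and C, and 6 without NF-YAs A or C. The median log2 fold change kept its sign throughout, at -0.38 to -0.20 for NF-YAl and -0.36 to -0.25 for NF-YAs.

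**Figure D2:**
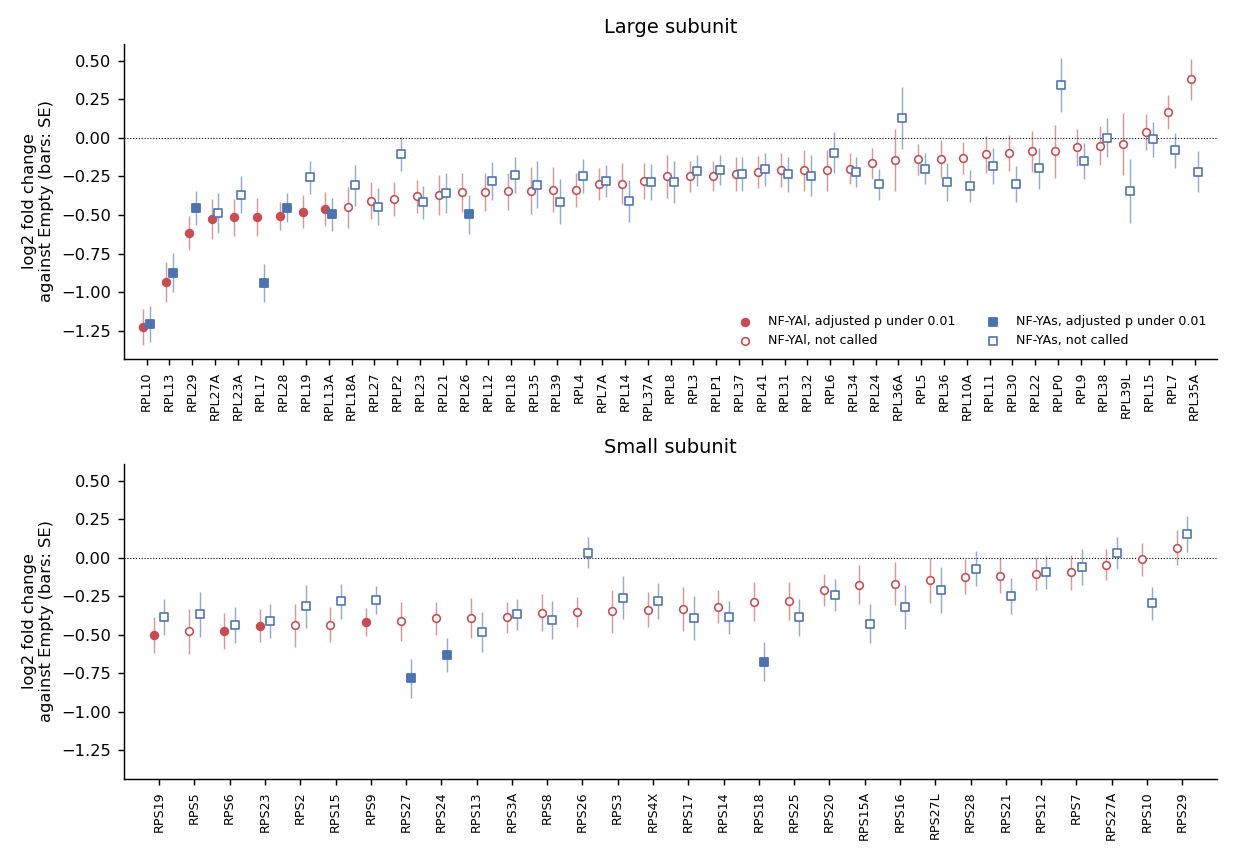
Log2 fold change of the members against Empty, with its SE, for NF-YAl (red circles) and NF-YAs (blue squares), ordered by NF-YAl. Filled symbols passed an adjusted p under 0.01. RPL10 lies lowest in both lines, followed by RPL13 in NF-YAl and by RPL17 in NF-YAs.

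Among the 47 large subunit genes tested, 9 were called lower in NF-YAl and 7 in NF-YAs, where 9.54% and 10.5% of all genes were. The medians over all 47 were -0.25 and -0.28. RPL10 encodes the protein that joins the large subunit late in its assembly, close to the P site. It was at 886, 1157 and 1153 CPM in Empty, 472, 468 and 428 with NF-YAl and 448, 458 and 477 with NF-YAs. All libraries of both NF-YA lines thus lay far below the lowest Empty library. The log2 fold change was -1.22 ± 0.12 (SE) in NF-YAl (adjusted p = 1.45e-05, edgeR) and -1.21 ± 0.12 in NF-YAs (adjusted p = 1.27e-05). RPL13, a protein of the solvent side of the large subunit, had 1143, 1331 and 1339 CPM in Empty. It had 557, 704 and 733 CPM with NF-YAl and 654, 773 and 654 with NF-YAs, again with no overlap. Its log2 fold changes were -0.93 ± 0.13 (adjusted p = 0.000196) and -0.87 ± 0.13 (adjusted p = 0.000263). Tested genes next to RPL10 on its chromosome (up to 100) had median log2 fold changes of -0.79 in NF-YAl and -0.70 in NF-YAs. Those next to RPL13 had -0.36 and -0.26. The part of these regions in the values was not tested.

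RPL10 and RPL13 were called in both lines under all 20 alternative settings. Their RefSeq gene models are long for ribosomal protein genes, at 2303 and 4515 bases on average. In every library 1 RPL10 transcript (NM_001303624.1) took 86.1 to 90.8% of the gene's TPM and 1 RPL13 transcript (NM_000977.3) took 86.0 to 92.7%. Over the 10 tested members with models above 1500 bases the median log2 fold change was -0.40 in NF-YAl and -0.34 in NF-YAs, against -0.29 and -0.29 over the other 68. The part of the model length in these values was not tested. Ribosomal protein genes have many near-identical processed copies in the genome, and reads from such copies cannot be told apart here.

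RPL17 lines the exit tunnel. Its level was 331, 448 and 411 CPM in Empty, 248, 279 and 307 with NF-YAl and 202, 221 and 198 with NF-YAs, so the 3 lines did not overlap. Its log2 fold change was -0.51 ± 0.12 in NF-YAl (adjusted p = 0.0073) and -0.94 ± 0.12 in NF-YAs (adjusted p = 0.000119). The difference between the lines, 0.43 ± 0.12, had an adjusted p of 0.0265 and was not called. Tested genes next to RPL17 on its chromosome (up to 100) had medians of -0.07 in NF-YAl and -0.38 in NF-YAs. Between the lines their median was 0.37, and the part of this region was not tested. The read-through gene RPL17-C18orf32, which shares RPL17 exons, took 0.11 to 0.733% of the counts of both in each library. For RPL36A and RPL36A-HNRNPH2 this share was 4.13 to 14.4%, so the RPL36A values are less certain.

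RPL29, a small basic protein of the large subunit, was at 347, 442 and 456 CPM in Empty, 273, 264 and 276 with NF-YAl and 286, 303 and 319 with NF-YAs. It was lower by a log2 fold change of -0.61 ± 0.11 in NF-YAl (adjusted p = 0.00121) and -0.45 ± 0.11 in NF-YAs (adjusted p = 0.00689). RPL23A, at the tunnel exit, and RPL27A, a core protein of the large subunit, were called lower in NF-YAl only, with log2 fold changes of -0.51 and -0.52. In NF-YAs they had -0.37 (adjusted p = 0.0325) and -0.49 (adjusted p = 0.0112). Tested directly, NF-YAl and NF-YAs differed by -0.15 for RPL23A (adjusted p = 0.413) and -0.04 for RPL27A (adjusted p = 0.863), so neither difference between the lines was detected. The NF-YAl calls of RPL17, RPL23A and RPL27A were lost without Empty B, Empty C, NF-YAl B or any NF-YAs library, with adjusted p up to 0.0487. The log2 fold changes where a left-out library ended these calls were -0.51 to -0.42, -0.53 to -0.47 and -0.55 to -0.41. The others called in NF-YAl were RPL13A, RPL19 and RPL28. RPL13A, RPL28 and RPL26 were the others called in NF-YAs.

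RPL35A, a gene mutated in Diamond-Blackfan anemia, went the other way in NF-YAl. It was at 215, 269 and 291 CPM in Empty, 293, 322 and 394 with NF-YAl, and 227, 212 and 227 with NF-YAs. Every NF-YAl library exceeded every other library, by little for NF-YAl A over Empty C. Against Empty the log2 fold change was 0.38 ± 0.13 (adjusted p = 0.0438), which missed the limit. Against NF-YAs it was 0.60 ± 0.13 (adjusted p = 0.00711). Tested genes next to RPL35A on its chromosome (up to 100) had medians of 0.57 against Empty and 0.35 against NF-YAs. The part of this region in the values was not tested. RPL35A was the only member called between the 2 lines, where 4.7% of all genes were higher in NF-YAl and 6.25% lower. The call was lost in 7 of 20 alternatives, among them each fit without Empty B, NF-YAl B, NF-YAl D or an NF-YAs library (adjusted p of 0.0104 to 0.0401, with log2 fold changes of 0.47 to 0.63). Without overlap, 9 members were higher and 7 lower in NF-YAl than in NF-YAs (11.5% and 8.97%), against 18.6% and 20.9% of all genes.

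**Figure D3:**
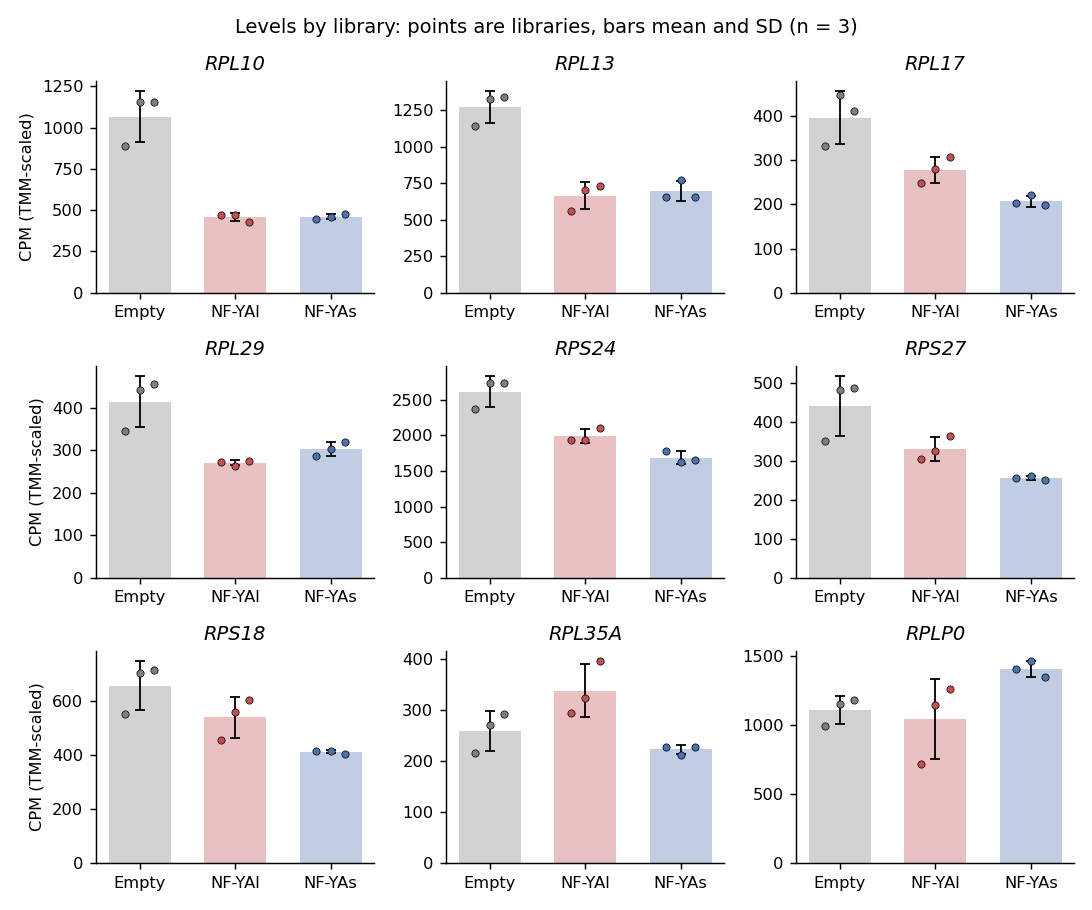
TMM-scaled CPM of 9 members in each library (points), with the group mean (bar, from 0) and SD (n = 3). RPL10 and RPL13 were lower in both NF-YA lines, RPS27, RPS24 and RPS18 lowest in NF-YAs, RPL35A highest in NF-YAl and RPLP0 highest in NF-YAs.

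Among the 31 small subunit genes, 4 were called lower in NF-YAl and 3 in NF-YAs, where 9.54% and 10.5% of all genes were. None was in both sets. The medians were -0.34 and -0.32. Those called in NF-YAl were RPS6, the substrate of S6 kinase, RPS9, RPS19, the gene most often mutated in Diamond-Blackfan anemia, and RPS23, with log2 fold changes of -0.48, -0.42, -0.50 and -0.44. Their NF-YAs values were -0.44, -0.27, -0.38 and -0.41, with adjusted p of 0.0108 to 0.0357. The 4 calls were lost with total counts, with only the 2 groups, and without Empty B, Empty C, NF-YAl B or NF-YAs C, with adjusted p up to 0.065. Where a left-out library ended a call, the log2 fold changes were -0.52 to -0.37 for RPS6, -0.42 to -0.38 for RPS9, -0.56 to -0.48 for RPS19 and -0.44 to -0.39 for RPS23. Between the lines these genes differed by -0.15 to -0.03, with adjusted p of 0.271 to 0.858.

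The genes called in NF-YAs were RPS27, RPS18 and RPS24. RPS27, a zinc-finger protein of the small subunit, was at 351, 481 and 486 CPM in Empty, 303, 324 and 363 with NF-YAl and 256, 260.5 and 250.4 with NF-YAs. NF-YAl D overlapped Empty A, and the NF-YAs libraries lay below all others. The log2 fold change was -0.78 ± 0.13 in NF-YAs (adjusted p = 0.000534) and -0.41 ± 0.13 in NF-YAl (adjusted p = 0.0257). RPS18, in the head of the small subunit, was at 553, 702 and 715 CPM in Empty, 455, 559 and 603 with NF-YAl and 414, 416 and 405 with NF-YAs. Its log2 fold change was -0.67 ± 0.13 in NF-YAs (adjusted p = 0.00149) and -0.29 ± 0.13 in NF-YAl (adjusted p = 0.107). Without Empty C the NF-YAs value of RPS18 was -0.61, with an adjusted p of 0.0106.

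RPS24, also mutated in Diamond-Blackfan anemia, had the highest level per length of all members, at 5850 ± 470 TPM in Empty (SD, n = 3). It was at 2366, 2739 and 2740.1 CPM in Empty, 1941, 1934 and 2097 with NF-YAl and 1787, 1625 and 1655 with NF-YAs, with no overlap between the 3 lines. The log2 fold change was -0.63 ± 0.11 in NF-YAs (adjusted p = 0.000746) and -0.39 ± 0.11 in NF-YAl (adjusted p = 0.0147). Between NF-YAl and NF-YAs, RPS27, RPS18 and RPS24 differed by 0.37, 0.39 and 0.24 on the log2 scale, with adjusted p of 0.0538, 0.0447 and 0.132. None of the 3 differences between the lines was called. Tested genes next to RPS27, RPS18 and RPS24 (up to 100 each) had medians of -0.42, -0.18 and -0.28 in NF-YAs. In NF-YAl these medians were -0.15, 0.03 and -0.09, and between the lines 0.25, 0.18 and 0.21. The part of these regions in the values was not tested. RPS27 and RPS24 stayed called in NF-YAs under all 20 alternatives.

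The balance between the subunits was compared as the summed TPM of the large over that of the small subunit genes, which is per length and within a library. TPM of short transcripts also depends on the fragment length of the library. The mean fragment was 150 to 158 bases in Empty, 146 to 160 in NF-YAl and 157 to 168 in NF-YAs. Its part in the ratio was not tested. The ratio was 1.287, 1.271 and 1.285 in Empty A, B and C. It was 1.303, 1.319 and 1.351 in NF-YAl A, B and D, and 1.369, 1.398 and 1.380 in NF-YAs A, B and C. The 3 lines did not overlap, with means of 1.281 ± 0.009, 1.324 ± 0.024 and 1.382 ± 0.015 (SD, n = 3). RPS24 alone took 16.2 to 17.1% of the small subunit TPM in Empty, 14.9 to 16.9% in NF-YAl and 13.2 to 14.7% in NF-YAs. Without RPS24 the means were 1.54, 1.57 and 1.61, and NF-YAl B (1.551) then overlapped Empty A (1.553). Without RPS24, RPS27 and RPS18 the ratio was 1.80 to 1.81 in Empty, 1.80 to 1.84 in NF-YAl and 1.80 to 1.82 in NF-YAs, and all lines overlapped. With RPLP0 left out as well, the order turned for NF-YAs, which at 1.733 to 1.745 lay below Empty at 1.750 to 1.759, and NF-YAl, at 1.747 to 1.789, overlapped Empty. These leave-outs were chosen after the values were seen. In summed CPM, which favors long transcripts, the ratio was 1.645 to 1.649 in Empty, 1.64 to 1.68 in NF-YAl and 1.72 to 1.77 in NF-YAs, and NF-YAl overlapped Empty.

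**Figure D4:**
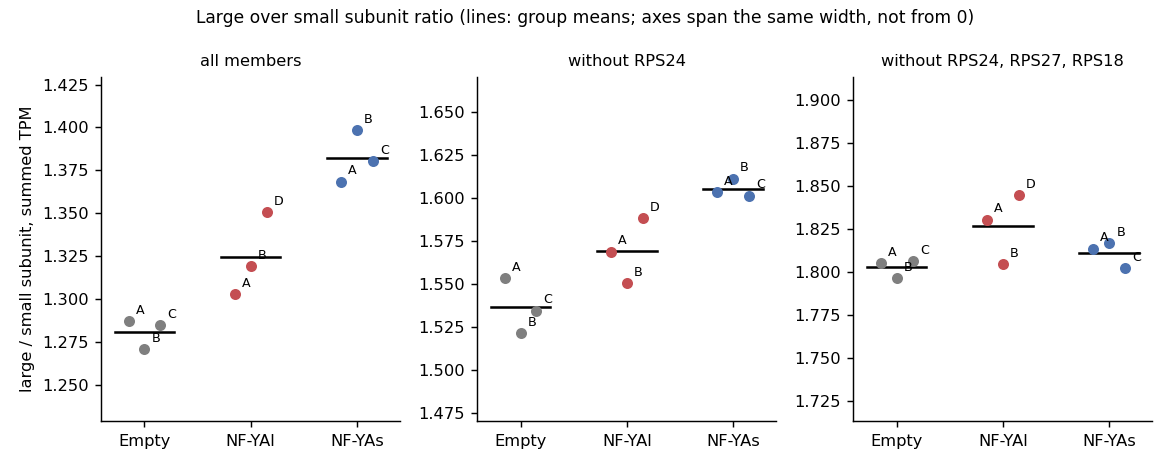
Ratio of summed TPM of large to small subunit genes in each library (letters), with group means (lines). With all members the 3 lines separate; without RPS24, RPS27 and RPS18 they overlap, between 1.80 and 1.84.

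RPS24 is known for alternative splicing near the 3′ end of its coding sequence, and its transcripts did not fall alike. The most abundant, NM_033022.3 (656 bases), was at 1784, 2124 and 2189 CPM in Empty, 1600.0, 1495 and 1520 with NF-YAl and 1227, 1084 and 1177 with NF-YAs. The next, NM_001026.4 (634 bases), was at 561, 590 and 527 CPM in Empty and 534, 516 and 453 in NF-YAs, which overlapped, and at 294, 408 and 549 in NF-YAl A, B and D. As a share of the gene's TPM, NM_001026.4 took 24.6, 22.3 and 19.96% in Empty A, B and C. It took 15.8, 21.9 and 27.1% in NF-YAl A, B and D and 30.9, 32.8 and 28.3% in NF-YAs A, B and C. The NF-YAs shares exceeded all others, and the NF-YAl shares spanned the whole Empty range. With 3 libraries a group the smallest possible p of an exact permutation test is 0.1, so no test was read. These transcripts differ by 22 bases, and their split is RSEM's estimate. Among the 173 transcripts of the 80 members, none had group means that differed by 10 percentage points, and this RPS24 transcript came closest at 9.07.

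The P-stalk recruits elongation factors to the large subunit and consists of RPLP0, RPLP1 and RPLP2. RPLP0, its anchor, was at 990.2, 1151 and 1181 CPM in Empty, 718, 1148 and 1263 with NF-YAl A, B and D and 1405, 1460.3 and 1349 with NF-YAs. NF-YAl A was thus the lowest and NF-YAs the highest of all. The log2 fold change was 0.34 ± 0.17 in NF-YAs (adjusted p = 0.144) and -0.09 ± 0.17 in NF-YAl (adjusted p = 0.751), and -0.43 ± 0.17 between NF-YAl and NF-YAs (adjusted p = 0.0937). Its partners had log2 fold changes of -0.25 (RPLP1) and -0.39 (RPLP2) in NF-YAl, where NF-YAs gave -0.21 and -0.10, and edgeR called 0 of the 3 P-stalk genes. In NF-YAl 2 had an unadjusted p under 0.05, and DESeq2 called 1. Tested genes next to RPLP0 on its chromosome (up to 100) had median log2 fold changes of 0.54 in NF-YAs and 0.28 in NF-YAl. Between NF-YAl and NF-YAs their median was -0.30. The part of this region in the RPLP0 values was not tested.

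Per length, the large subunit genes had a median of 788 TPM in Empty (0.12 to 3433) and the small subunit genes 915 TPM (19.2 to 5850). Also among the highest were RPL41 (3433 ± 196 TPM, SD, n = 3), which encodes a very short basic peptide, RPL37A (2493 ± 42), RPS27 (2451 ± 80) and RPL36 (2220.2 ± 104). RPL37A and RPS27 did not differ beyond their spread. RPL41, RPL36 and RPL37A had log2 fold changes of -0.28 to -0.14 in NF-YAl and -0.29 to -0.20 in NF-YAs, and none was called. The TPM scale itself moved between libraries. Members took 12.9% of all TPM in NF-YAl D against 6.44 to 8.52% in the others, and 14.1 to 17.6% in all 9 once short structural RNAs were left out of the total.

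The paralogs were far below the genes they resemble. RPL39L was at 37.3 ± 5.8 TPM and RPS27L at 19.2 ± 0.8 TPM in Empty (SD, n = 3), whereas RPL10L and RPL3L were at 0.53 and 0.12. RPL39L had 17.99, 18.5 and 18.3 CPM in Empty, 11.8, 17.1 and 24.2 with NF-YAl A, B and D and 15.3, 12.3 and 15.4 with NF-YAs. Neither RPL39L nor RPS27L was called. RPL21 and RPS20, which the study used as reference genes in RT-qPCR of other samples, were not called either. The study used RPL21 for its panel of prostate cells, and RPS20 together with beta-actin for xenograft tumors. RPL21 had log2 fold changes of -0.37 ± 0.13 in NF-YAl (adjusted p = 0.0483) and -0.36 ± 0.13 in NF-YAs (adjusted p = 0.0493). RPS20 had -0.21 ± 0.10 (adjusted p = 0.142) and -0.24 ± 0.10 (adjusted p = 0.0897), and its NF-YAs libraries, at 153 to 156 CPM, all lay under the lowest Empty library, at 158.

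The promoters of the members carried the CCAAT box about as often as those of all genes. Of the 78 RefSeq promoter windows that matched 63 members, from 250 bases before to 50 after the start, 33.3% held CCAAT or ATTGG, against 34.6% of 35116 windows of all genes. A start with C and at least 4 further pyrimidines was found in 57.7% of the members' windows and 4.07% of all windows. Members with a CCAAT window had a median log2 fold change of -0.30 in NF-YAl and -0.26 in NF-YAs (n = 21), and those without -0.30 and -0.28 (n = 41). For the pyrimidine start the medians were -0.32 and -0.30 with it (n = 45) and -0.21 and -0.21 without it (n = 17). A match to these letters is not a binding site, and its absence says nothing of NF-Y outside the window.

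Other genes of the ribosome and of translation were followed through fixed lists. A list of 8 held ribosomal protein genes with other names and genes named as like them, such as RPL7L1. Of these, edgeR called 1 lower in NF-YAl, RACK1, a small subunit scaffold for signaling proteins. It had a log2 fold change of -0.49 (adjusted p = 0.00888). In NF-YAs RACK1 had -0.45 (adjusted p = 0.0123). edgeR called 0 of the 8 there, with 2 at an unadjusted p under 0.05, and DESeq2 called 1. Of 17 translation factors and other TOP mRNAs, 1 was called lower in each line (5.88%, against 9.54% and 10.5% of all genes), and the medians were -0.21 and -0.18. EEF1B2, an exchange factor for elongation factor 1, had -0.55 in NF-YAl (adjusted p = 0.00343), and EEF1A1, which delivers aminoacyl-tRNA, had -0.52 in NF-YAs (adjusted p = 0.00405). EEF1B2 had -0.18 in NF-YAs and EEF1A1 -0.27 in NF-YAl. Neither gene was called between the lines (adjusted p = 0.0386 and 0.131).

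Genes for ribosome assembly and rRNA synthesis were called in both directions. Of 57 tested, 1 was called higher and 6 lower in NF-YAl (median -0.08), that is 1.75% and 10.5%, against 10% and 9.54% of all genes. In NF-YAs 6 were called higher and 3 lower (median 0.13), that is 10.5% and 5.26%, against 12.1% and 10.5% of all genes. UBTF, an activator of RNA polymerase I, was higher in both, with log2 fold changes of 0.52 (adjusted p = 0.000583) and 0.78 (adjusted p = 2.81e-05). DKC1, the pseudouridine synthase of box H/ACA particles, the assembly GTPase GNL2 and the subunit joining inhibitor EIF6 were lower in both, with log2 fold changes of -0.60, -0.45 and -0.56 in NF-YAl (adjusted p up to 0.00948) and -0.46, -0.48 and -0.59 in NF-YAs (adjusted p up to 0.00649). In NF-YAs the assembly factors RRS1 and BOP1 had log2 fold changes of 1.07 (adjusted p = 0.000357) and 0.69 (adjusted p = 0.00412). Their NF-YAl values were 0.49 and 0.38, and neither was called between the lines (adjusted p = 0.0235 and 0.162). In NF-YAl, NOB1, the nuclease that completes small subunit rRNA, was lower by a log2 fold change of -0.66 (adjusted p = 0.00954). It had -0.43 in NF-YAs (adjusted p = 0.0617) and differed by -0.23 between the lines (adjusted p = 0.347). In NF-YAl 3 of the 57 were called lower than in NF-YAs (5.26%, against 6.25% of all genes). The median log2 fold change between the lines was -0.22, with 49 of the 57 below 0.

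Of 16 MYC and mTOR pathway genes, 1 was called higher and 1 lower in NF-YAl, and 3 higher and 1 lower in NF-YAs. As shares these were 6.25% and 6.25% in NF-YAl, against 10% and 9.54% of all genes, and 18.8% and 6.25% in NF-YAs, against 12.1% and 10.5%. MTOR, the kinase itself, had a log2 fold change of -0.43 in NF-YAl (adjusted p = 0.00545) and 0.06 in NF-YAs, and differed between the lines (-0.50, adjusted p = 0.00419). RPTOR, its substrate-binding partner, had 0.02 in NF-YAl and 0.73 in NF-YAs (adjusted p = 0.000168), with -0.71 between the lines (adjusted p = 0.000567). TSC1, which restrains mTOR, was higher in both, with log2 fold changes of 0.53 (adjusted p = 0.00543) and 0.58 (adjusted p = 0.00272), and EIF4EBP1, the translation repressor that mTOR phosphorylates, had 0.50 in NF-YAs (adjusted p = 0.00554). EIF4EBP1 had 0.06 in NF-YAl and was not called between the lines (-0.44, adjusted p = 0.0187).

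The host transcripts of small nucleolar RNAs, many of which also begin with a TOP motif, had medians of -0.36 in both lines. Of 12, 3 were called lower in NF-YAl (25%, against 9.54% of all genes), and 2 lower and 1 higher in NF-YAs (16.7% and 8.33%, against 10.5% and 12.1% of all genes). GAS5 was at 27.1, 31.0 and 32.9 CPM in Empty, 15.3, 18.4 and 18.6 with NF-YAl and 15.8, 15.8 and 15.4 with NF-YAs, with log2 fold changes of -0.80 (adjusted p = 0.000296) and -0.95 (adjusted p = 7.42e-05). ZFAS1 had -0.62 (adjusted p = 0.00324) and -0.64 (adjusted p = 0.00238), and SNHG8 -0.77 in NF-YAl (adjusted p = 0.0006). SNHG8 had -0.37 in NF-YAs (adjusted p = 0.0365) and was not called between the lines (-0.40, adjusted p = 0.0377). SNHG16 was higher in NF-YAs, with a log2 fold change of 0.47 (adjusted p = 0.00379).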

How the data were processed

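Stranded total RNA libraries of PC-3 MTSs were made from 3 lines with 3 libraries each. The authors aligned reads with bowtie2 within RSEM to hg19 RefSeq transcripts and deposited, per library, RSEM expected counts (estimated reads, not normalized, shared between similar transcripts). The authors' deposited TPM are per length and sum to the same value for every library, and their deposited percent gives each transcript's share of its gene's TPM. Deposited effective lengths, in bases, were used only as an offset in 1 alternative and to obtain the mean fragment of each library.

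Gene-level expected counts were rounded and fitted with edgeR 4.0.16 in R 4.3.3 (filterByExpr, TMM, 3 groups in one quasi-likelihood fit, Benjamini-Hochberg over all 17108 genes). A gene was called at an adjusted p under 0.01, and the study's fold limit is a |log2FC| above 1. The SE is |log2FC| over the square root of F. The procedure was tested on simulated data. Members were matched by symbol. The members and the gene lists were chosen with earlier results of these data known. Named members were those past the fold limit, up to 5 per comparison and direction with the largest called |log2FC|, at least 5 CPM and no overlap, the 3 highest per subunit in TPM, the P-stalk genes, paralogs, reference genes, genes not tested and RPS24. From other lists up to 4 called genes were named. Some genes that these rules name are not reported here. RPL13A, RPL19, RPL26, RPL28, RPS6, RPS9, RPS19, RPS23, DKC1, GNL2 and EIF6 were named after their values were seen. Short structural RNAs were genes named as rRNA, 7SL, 7SK, Y, vault, small nuclear, small nucleolar or micro RNAs. Promoter sequences are from RefSeq on GRCh38.p14 and were matched by symbol, since the counts are on another build.

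Alternatives were DESeq2 1.42.0, RLE factors, total counts, ribosomal RNA or short structural RNA genes left out, no filter, at least 10 counts in every library, a fit of 2 groups only, a replicate block by letter, an effective length offset, a limit of 0.05 on the adjusted p, and each library left out in turn.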

Additional observations from a re-analysis of the deposited data

How the results depend on the processing

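The median log2 fold change of the members kept its sign under all 19 alternatives against Empty, at -0.38 to -0.14 in NF-YAl and -0.36 to -0.18 in NF-YAs. Scaling by total counts moved the median of all genes to 0.16 and 0.11, and the members then had -0.14 and -0.18, that is -0.31 and -0.28 relative to all genes, against -0.31 and -0.28 with TMM.

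The number of called members changed with the setting far more than the median. For NF-YAl against Empty (13 lower) it was 23 with DESeq2, 4 with total counts, 4 with only the 2 groups, 35 at an adjusted p under 0.05 (with 1 higher), and 3 to 29 when 1 library was left out. For NF-YAs against Empty (10 lower) it was 22, 6, 36 (with 1 higher) and 32 in the same order, and 5 to 27 when 1 library was left out. For NF-YAl against NF-YAs (1 higher, 0 lower) it was 2 higher and 1 lower with DESeq2, 0 higher with only the 2 groups, 3 higher and 1 lower at an adjusted p under 0.05, and 0 to 3 higher and 0 to 1 lower when 1 library was left out. At an adjusted p under 0.01 all 13 and all 10 genes were kept by DESeq2. Fewer samples and, at an adjusted p under 0.05, a looser limit are part of these settings, and otherwise the cause was not tested.

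With the replicate letter as a replicate block, 29 members were lower in NF-YAl, 32 in NF-YAs, and 2 in NF-YAl than in NF-YAs. Deviations of same-lettered libraries correlated at -0.07 to 0.25. Of these pairs 3 of 7 exceeded 0.1, against 1 of 20 pairs with different letters. Not every library correlated best with 1 of its own letter, so the letters were not established as pairs.

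Mean ratios of large to small subunit for Empty, NF-YAl and NF-YAs were 1.65, 1.67 and 1.74 in TMM-scaled CPM. They were 1.54, 1.57 and 1.61 without RPS24, 1.25, 1.29 and 1.33 without RPLP0, 1.80, 1.83 and 1.81 without RPS24, RPS27 and RPS18, and 1.76, 1.77 and 1.74 without all 4. The leave-outs of members were chosen after seeing the data.

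Of 980 alternative values for 49 named results, 882 kept their direction and their side of the limit, 41 lost and 48 gained a call, and 9 changed sign, none of them called. With total counts the log2 fold changes became 0.0198 for RPL36, 0.12 for RPL39L, 0.0685 for RPLP0 and 0.00979 for RPS27L in NF-YAl, 0.00336 for RPLP2 in NF-YAs and 0.00929 for RPL27A between the lines. Without single libraries they were -0.33 to 0.18 for RPL39L and -0.25 to 0.12 for RPLP0 in NF-YAl, and -0.14 to 0.0819 for RPL27A between the lines, and only leaving out NF-YAl A made them positive. In NF-YAl, RPL17, RPL23A and RPL27A lost the call in 9, 8 and 9 of 20 alternatives (adjusted p up to 0.0402, 0.041 and 0.0487), among them each fit without Empty B, Empty C, NF-YAl B or an NF-YAs library. In NF-YAs, RPL29 lost it in 7 (adjusted p up to 0.043).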
